A study of Mus musculus with 6 samples.

Results

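Late spermatocytes with high UMI counts were studied in droplet single-cell RNA-seq of the testis of adult ICR mice, an outbred stock, exposed or not exposed to cigarette smoke. A UMI, a unique molecular identifier, marks a captured RNA molecule. The cells were chosen by their own RNA. M was the summed UMIs of Ccna1, Pou5f2, Piwil1, Tbpl1 and Aurka, S that of the round spermatid genes Acrv1, Spaca1, Lyzl4, Izumo1, Catsper3 and Spaca7, and P the percent of UMIs from the protamine and transition protein genes Prm1, Prm2, Tnp1 and Tnp2. A barcode was kept with at most 20% of its UMIs from mitochondrially encoded (mt-) genes, at least 15000 UMIs, M of at least 20, M above S and P under 3. These conditions left 390 member cells of 54253 deposited barcodes, 220 of them from the 3 smoking libraries and 170 from the 3 control libraries.

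Both groups were male ICR mice that were 6 weeks old at purchase and had 1 week to adapt. Smoking mice then spent 30 minutes a day for 12 weeks in a chamber with the smoke of 15 cigarettes per session, each labelled with 11 mg of tar and with nicotine at 1.1 mg, at 3.47 mg of smoke per m3. Control mice were put in such a chamber without smoke over the same weeks. The labelled age of 8 weeks is shorter than this schedule. The left testis was dissociated and dead cells were depleted before 10x Genomics 3′ v2 libraries were made. Each group had 7 mice, and the labels do not tie mice to libraries, so every p-value below measures the spread between libraries, which may in part be technical.

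In meiotic prophase, spermatocytes pair their chromosomes along the synaptonemal complex and repair programmed DNA breaks. From pachytene on, the unpaired X and Y chromosomes are packed into the sex body and transcriptionally silenced, which is called meiotic sex chromosome inactivation, while many autosomal genes of the later spermatid are already transcribed. The transcription factor MYBL1 (A-MYB) switches on pachytene piRNA precursors and piRNA pathway genes such as Piwil1, and cyclin A1 with the Aurora and Polo kinases takes the cells into the meiotic divisions, after which round spermatids form. The 5 genes of M come from different points of this path. Ccna1 encodes the germ cell cyclin A1, Pou5f2 a POU-domain factor of spermatocytes, Piwil1 the PIWI protein MIWI that binds piRNAs, Tbpl1 the TBP-like factor TRF2 needed for spermatid development, and Aurka the spindle kinase Aurora A.

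As Piwil1 is a known MYBL1 target, the MYB core GCAGTT or its reverse complement AACTGC was searched in the 250 bases before each annotated start in the RefSeq promoter table of build GRCm38.p6, on both strands. Of the 5 genes of M, 1 held a match, Piwil1, against 12.7% of the 27025 genes in that table. The match lies 68 bases before the start used by the table, on the plus strand of chr5:128736160-128736189, shown here with the core in capitals.
Piwil1: cggagggatctgGCAGTTggggctgttagc
A match of 6 letters is a description of this window and not a site shown to be bound.

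The members were deep and held few UMIs of somatic and blood cell markers. A member had a median of 47386 UMIs (range 15093 to 294441) and 6648 genes (range 3776 to 10248). Member UMIs summed to 4112002, 4483562 and 5377773 in smoking libraries 1 to 3, against 2746156, 2011663 and 3852424 in control libraries 1 to 3. Smoking library 2 stood apart in depth, with a median of 74959 UMIs per member, while the medians of the other libraries lay between 41594 and 47661. The rule left few cells close to its edges: 26 members had M from 20 to 24, 14 barcodes missed only by an M of 15 to 19, and 9 missed only by mt- genes above 20%. At the border with round spermatids, 3 members had M within 5 of S, and 5 barcodes met every other condition with S equal to M or up to 5 above it. In all, 467 barcodes missed only by S of at least M, at any distance. No barcode sequence was a member in more than 1 library, and 365 of 53886 barcode sequences occurred in more than 1 library. Of 39 markers of Sertoli, Leydig, peritubular, endothelial, mesenchymal, macrophage and red blood cells, 8 had no UMI in any member, among them Lhcgr, Csf1r and Col1a1. All 39 together gave 626 UMIs, the most from the Sertoli genes Clu with 140 and Aard with 89. RNA of spermatid genes was present. Prm1, Prm2, Tnp1 and Tnp2, which the rule limits, took a median of 0.706% of a member's UMIs (range 0.175 to 2.38%). The source of that RNA was not tested.

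Markers outside the rule showed where the cells sit. Neighbouring sets of cells on either side, from the same libraries, served for comparison, as a description with no test. The round spermatid side held 965 barcodes with at least 15000 UMIs and S of at least 20 and above M. The early meiotic side held 372 barcodes with at least 6000 UMIs and a summed count E of Stra8, Prdm9, Meiob, Dmc1, Zcwpw1, Smc1b and Hormad1 of at least 10 and above M and S. Levels are counts scaled to a common library total (CPM, here UMIs of a gene per 1000000 UMIs), as means over 6 libraries. Of 9 late spermatocyte markers that the rule did not use, 6 were higher in members than in both neighbours. Mybl1 was at 117 CPM in members, 79.8 in the early meiotic side and 11.1 in the round spermatid side. Hspa2, the testis HSP70 that disassembles the synaptonemal complex, was at 1591, 485 and 777 CPM in the same order, and Clgn, the sperm chaperone calmegin, at 671, 163 and 400 CPM. Ldhc, Ovol1 and Ybx2 were likewise highest in members. The other 3 markers, Insl6, Pgk2 and Cdc25c, were highest on the round spermatid side, Pgk2 with 572 CPM against 133 CPM in members. The 7 genes of E, which chose the early meiotic side, were all lower in members but to unequal degrees. Stra8, the gene induced by retinoic acid at meiotic entry, was at 0.254 CPM in members and 258 CPM in the early meiotic side, and Dmc1, the meiotic recombinase, at 2.81 and 73.0 CPM. Smc1b, a meiotic cohesin, was at 370 CPM in members and 539 CPM in the early meiotic side, Hormad1, a chromosome axis gene, at 276 and 428 CPM, and Meiob, a recombination gene, at 42.7 and 177 CPM. Spermatogonial Kit was at 0.750 CPM in members and 67.7 CPM in the early meiotic side, Dmrt1 at 0.561 and 123 CPM, and Uchl1 at 10.7 and 412 CPM. Gfra1 was low in both, at 0.205 and 2.65 CPM. The early meiotic side thus also held RNA of spermatogonial genes, and of the Sertoli gene Clu at 177 CPM.

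Genes that set the members apart from round spermatids by the largest folds, again with no test, included Tex101, a germ cell surface protein, with 629 ± 76.3 CPM in members against 8.67 ± 2.39 CPM in the round spermatid side (SD, n = 6 libraries). Hmgb2, a chromatin protein, was at 704 ± 73.0 against 14.0 ± 4.58 CPM, Calm2, a calmodulin gene, at 2324 ± 150 against 51.5 ± 8.61 CPM, and Alyref, an mRNA export adaptor, at 139 ± 9.0 against 1.76 ± 1.04 CPM. On the other side, Pfn3, a testis profilin, was at 15.3 ± 3.44 CPM in members against 664 ± 46.2 CPM, and 1700001P01Rik at 16.2 ± 5.70 against 870 ± 30.3 CPM. Against the early meiotic side, Spink2, an inhibitor of acrosomal proteases, was at 1495 ± 95.3 CPM in members and 133 ± 15.6 CPM in the neighbour, and Prok2, a secreted prokineticin, at 331 ± 24.3 against 26.9 ± 4.52 CPM. All 60 genes listed by these folds differed in the same direction in all 6 libraries. They were chosen by their mean folds over these same libraries, so this agreement is not separate evidence. Among them are Piwil1, a gene of M, and Stra8, a gene of E, which helped to define the cell sets.

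Low X-linked RNA was a property that the rule had not used. Genes on the X chromosome gave 0.0961, 0.14 and 0.157% of member UMIs in smoking libraries 1 to 3, and 0.159, 0.136 and 0.0933% in control libraries 1 to 3. The early meiotic side had between 1.24 and 1.55% and the round spermatid side between 1.24 and 1.32%. The share was thus 8.85 to 13.8 times higher in the early meiotic side and 8.26 to 13.8 times higher in the round spermatid side than in the members of the same library. Members were lower in 6 of 6 libraries in both comparisons (exact sign-flip test over libraries, two-sided p = 0.0313, adjusted p = 0.0313 over 4 comparisons, the smallest p that 6 libraries allow). Y-linked genes gave 0.00758 ± 0.00201% in members, against 0.0514 ± 0.00456% in the early meiotic side and 0.0717 ± 0.00387% in the round spermatid side (SD, n = 6 each), again lower in 6 of 6 libraries with the same exact p.

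Gene by gene, 634 of the 1087 X-linked genes in the files had at least 1 UMI in a member. The filter on low counts passed 109 X-linked genes among 10424 genes in members, and 345 among 11846 on the round spermatid side. Its cut in CPM depends on the summed depth, so these counts are not at the same threshold. Among the 15 genes that were lowest in members relative to the early meiotic side, 10 were X-linked, while 1.39% of the 4957 genes at 50 CPM or more in either set were. They included Scml2, a germline Polycomb protein, at 2.0 ± 1.73 CPM in members and 224 ± 22.8 CPM in the early meiotic side, Taf7l, a germ cell TFIID subunit, at 2.62 ± 2.31 and 281 ± 40.8 CPM, and the ribosomal protein gene Rpl36a at 2.90 ± 4.78 and 488 ± 45.7 CPM (SD, n = 6). The remaining X-linked UMIs came in part from spermatid genes: Tsga8 gave 5.57% and Akap4, an anchor protein of the sperm fibrous sheath, 4.6% of them.

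A list of 8 autosomal copies of X-linked genes and their originals is given as CPM over the pooled members, with no test. Such retrogenes arose by retroposition from X-linked housekeeping genes. Pdha1, the X-linked E1-alpha subunit of pyruvate dehydrogenase, had 1 UMI in all 390 members, while its autosomal copy Pdha2 was at 288 CPM. Rpl10 was at 4.43 CPM and its copy Rpl10l at 108 CPM in members, against 197 and 57.6 CPM in the early meiotic side. Rbmx was at 0.576 CPM with its copy Rbmxl2 at 486 CPM. Pgk1 was at 2.83 CPM in members, and Pgk2, the copy for sperm glycolysis, was at 135 CPM. Cetn1, a centrin gene, was at 1379 CPM and its original Cetn2 at 1.55 CPM. The other copies were low in members: Cstf2t was at 28.6 CPM with Cstf2 at 3.23 CPM, Utp14b at 16.4 CPM with Utp14a at 1.37 CPM, and G6pd2 and G6pdx had 6 and 2 UMIs in all members. In the early meiotic side Cstf2t was at 29.1 CPM and Utp14b at 52.6 CPM.

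The members were not uniform. Clustering on autosomal genes, without mt- and ribosomal protein genes, gave 6 clusters, which are numbered here by falling share of synaptonemal complex genes. Their leading genes define them, so the values are a description with no test. Cluster 1 (36 cells) was led by Prss50, Rad51ap2, Mdk, Sohlh2 and Mnd1, a partner of the recombinases. Sycp1, the transverse filament of the synaptonemal complex, was at 2644 CPM there, Dmc1 at 37.9 CPM and the germ cell RNA-binding gene Dazl at 1590 CPM. Cluster 2 (96 cells) had the highest Piwil1 at 1202 CPM, with Sycp1 at 958 CPM, and was led by Maz, Ube2e2 and Pop5. Cluster 3 (113 cells) had Piwil1 at 953 CPM and Sycp1 at 276 CPM, and Hist1h1t, the testis linker histone, was among its leading genes at 132 CPM. Cluster 4 (78 cells) was led by Pou5f2 at 222 CPM and by Ggn, with Sycp1 at 75.3 CPM.

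Cluster 5 (26 cells) had 0.472% of its UMIs from G2/M and meiotic division genes, against 0.395% in cluster 6, 0.336% in cluster 1 and 0.256 to 0.281% in clusters 2 to 4. Cdk1, the mitotic and meiotic kinase, was at 213 CPM, Plk1 at 183 CPM, Ccnb1 (cyclin B1) at 204 CPM, Aurka at 563 CPM and Ccna1 at 341 CPM, while cluster 3 had 56.1, 9.28, 12.2, 141 and 21.9 CPM of the same genes. Aurka and Ccna1 belong to the rule. Some division genes were higher in other clusters: Ccnb1 was at 288 CPM and Plk1 at 192 CPM in cluster 6, and Cdc20, an activator of the anaphase-promoting complex, was at 420 CPM in cluster 1 and 339 CPM in cluster 5. The leading genes of cluster 5 by fold were Sptbn4, Emx2 and Rnpep. Cluster 6 (41 cells) had the highest S. It had a median S of 26 against 3 to 4 in the other clusters, Spaca1 at 301 CPM against 14.6 CPM in cluster 5, Ccna1 at 385 CPM and Cdk1 at 54.5 CPM, and was led by Gm10376, Gm3676 and other related predicted genes of chromosome 14, whose near-identical copies can share reads. The doublet score called 16 of its 41 cells, and 33 of all 390 members, and whether its barcodes hold more than 1 cell was not tested further. Under the label of late spermatocytes the rule thus took cells that range from Sycp1- and Dmc1-bearing cells to cells with more Ccnb1 and Plk1 and, in cluster 6, cells with acrosomal RNA.

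**Figure D1:**
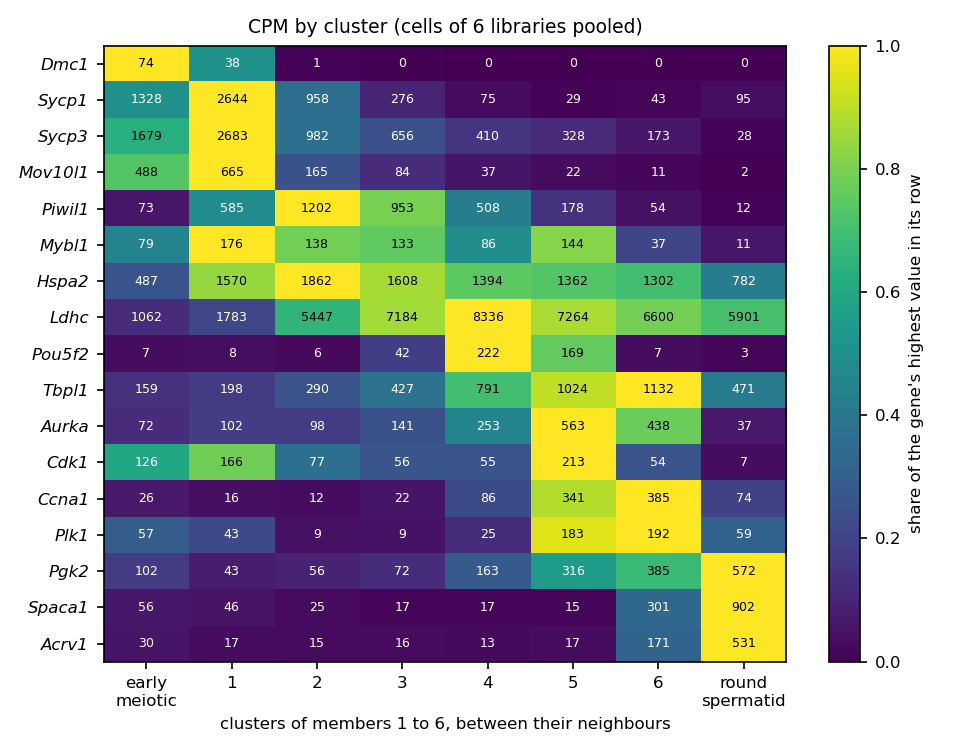
Levels of 17 genes in CPM (numbers in the cells of the plot, UMIs of 6 libraries pooled), from the early meiotic side through clusters 1 to 6 to the round spermatid side, with colour giving each value relative to the highest in its row. Sycp1 peaks in cluster 1 at 2644 CPM, Piwil1 in cluster 2 at 1202 CPM, Pou5f2 in cluster 4 at 222 CPM and Aurka in cluster 5 at 563 CPM.

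X-linked RNA followed these clusters, although genes of the sex chromosomes had been left out of the clustering. The median share per cell was 0.157% in cluster 1, 0.0851% in cluster 2, 0.0740% in cluster 3, 0.0779% in cluster 4, 0.108% in cluster 5 and 0.453% in cluster 6. Of the 41 cells of cluster 6, 17 were above 0.5%, against 1 cell each in clusters 1 and 3 and none in clusters 2, 4 and 5. Summed per library, cluster 6 ranged from 0.272 to 0.590% and cluster 3 from 0.0715 to 0.10%, without overlap. The cell in cluster 1 was in smoking library 2, had 2.01% of its 60602 UMIs from the X and M of 23, and was not called a doublet. Without it, the X-linked share of that library was 0.114%.

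Factors of the silencing itself were lower in the later clusters. Genes of sex chromosome silencing (H2afx, Mdc1, Atr, Topbp1, Setdb1, Scmh1 and others) took 0.174% of UMIs in cluster 1, 0.0753% in cluster 3, 0.0335% in cluster 5 and 0.0245% in cluster 6. H2afx, the histone variant phosphorylated on the sex body, was at 634 CPM in cluster 1 and 161 CPM in cluster 3, and Topbp1, which recruits ATR, at 268 and 72.8 CPM. The synaptonemal complex list itself ordered the clusters, so its decrease is no finding. Acrosome genes that the rule did not use took 0.110% in cluster 1, 0.495% in cluster 3 and 0.744% in cluster 5, and 0.661% on the round spermatid side. Spink2 reached 2342 CPM and Zpbp2, a zona pellucida binding protein gene, 790 CPM in cluster 5, where Acrv1 was at 17.4 CPM, against 171 CPM in cluster 6. Pgk2 was at 42.5 CPM in cluster 1 and 316 CPM in cluster 5. Ldhc, the testis lactate dehydrogenase, was at 1783 CPM in cluster 1 and 8336 CPM in cluster 4.

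Several housekeeping groups were lower in later clusters, again with no test. Ribosomal protein genes took 8.84% of UMIs in cluster 1, 7.39% in cluster 3 and 4.90% in cluster 5, and mt- genes, which the rule limits, 4.82, 2.96 and 3.24%. Nuclear noncoding RNAs, mostly Malat1 and Kcnq1ot1, took 0.175, 0.0728 and 0.0226% in the same clusters. Genes of mRNA storage and translation peaked in cluster 3 at 1.35%, with Ybx1 at 3985 CPM and Ybx3 at 3495 CPM, which encode Y-box proteins that hold germ cell mRNA in store. The piRNA list, which includes the rule gene Piwil1, was at 0.441% in clusters 1 and 2 and 0.311% in cluster 5. Within it, Mov10l1, the piRNA biogenesis helicase, was at 665 CPM in cluster 1 and 22.3 CPM in cluster 5, whereas Tdrd6, a chromatoid body protein gene, was at 37.3 and 324 CPM.

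**Figure D2:**
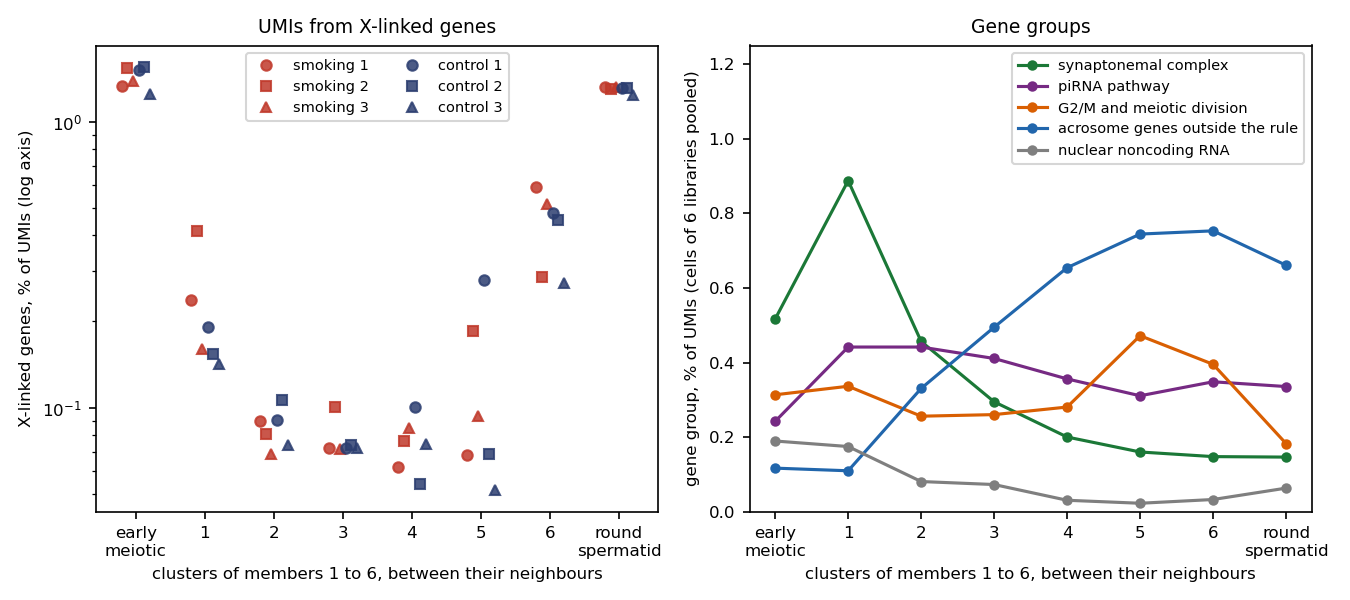
Left, percent of UMIs from X-linked genes (log axis) in each of 6 libraries, from the early meiotic side through clusters 1 to 6 to the round spermatid side, with smoking libraries in red and control libraries in blue. Right, percent of UMIs from 5 gene groups in the same order with cells of 6 libraries pooled. The X-linked share lies above 1.2% in both neighbours and below 0.11% in every library in clusters 2 and 3, and the acrosome group is at 0.110% in cluster 1 and 0.744% in cluster 5.

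The share of members was compared between smoking and control libraries. Members were 0.854, 0.571 and 1.05% of barcodes within the mt- limit in smoking libraries 1 to 3, against 0.676, 0.465 and 0.878% in control libraries 1 to 3. These groups overlap, and their means were 0.826 ± 0.242% and 0.673 ± 0.207% (SD, n = 3 each, exact two-sided permutation test p = 0.5). Among barcodes with at least 15000 UMIs, members made up 8.19, 5.75 and 6.40% in smoking libraries, against 13.9, 12.9 and 8.36% in control libraries. All 3 smoking values were below all 3 control values, with means of 6.78 ± 1.26% and 11.7 ± 2.97% (exact two-sided permutation p = 0.1, the smallest that 3 against 3 libraries allow). Smoking library 1 and control library 3 were closest, and their exact 95% binomial intervals of 6.45 to 10.2% and 6.62 to 10.4% overlapped. Such intervals cover counting error only. The denominator moved as well. High-UMI barcodes were 10.4, 9.93 and 16.4% of kept barcodes in smoking libraries and 4.85, 3.59 and 10.5% in control libraries. Per 100 cells of the round spermatid side there were 39.7, 41.3 and 31.3 members in smoking libraries and 65.1, 57.1 and 38.3 in control libraries (exact p = 0.3). Doublet calls among members were 2, 5 and 5 in smoking libraries and 11, 7 and 3 in control libraries, and their part in the shares was tested only by leaving them out, which gave a difference of -4.27 percentage points, smoking minus control (exact p = 0.2).

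**Figure D3:**
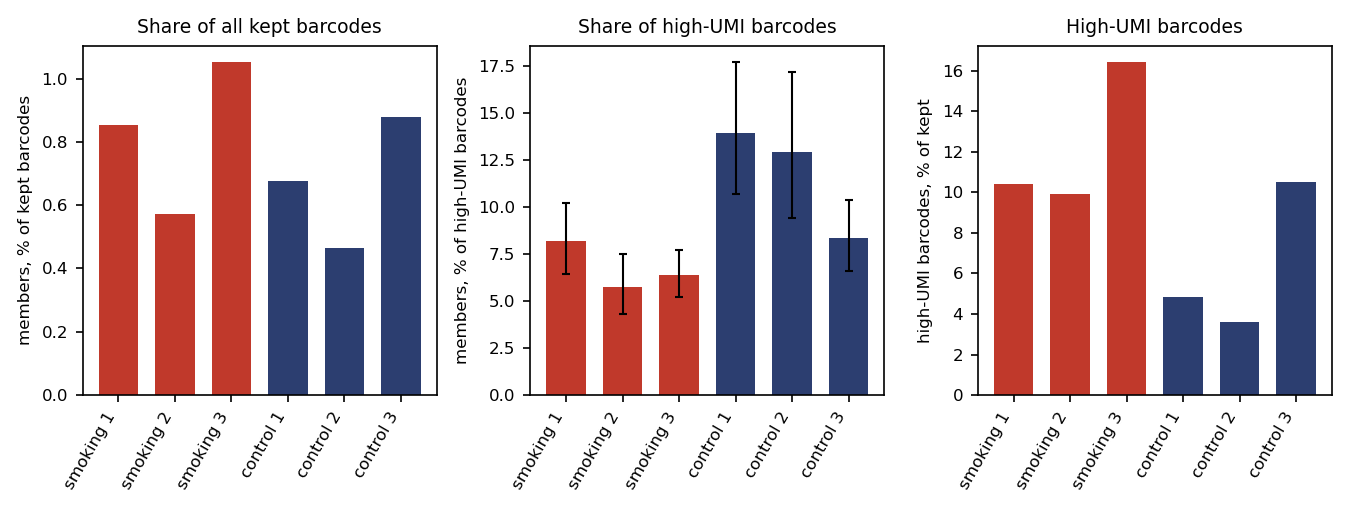
Members as percent of barcodes with mt- genes at most 20% (left) and of those with at least 15000 UMIs (middle, with exact 95% binomial intervals), and the percent of kept barcodes with at least 15000 UMIs (right), per library, smoking in red and control in blue. In the middle panel the smoking libraries lie between 5.75 and 8.19% and the control libraries between 8.36 and 13.9%.

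No cluster's share of the members passed a test between the groups. Cluster 5 held 5, 5 and 10 cells in smoking libraries 1 to 3 (7.04, 10.0 and 10.1% of members) and 1, 1 and 4 cells in control libraries 1 to 3 (1.79, 2.5 and 5.41%). The groups did not overlap, with an exact permutation p of 0.1 and an adjusted p of 0.4 over the 6 clusters. With 26 cells in all, this rests on few cells. In the other 5 clusters the groups overlapped, with exact p-values from 0.2 to 1. Cluster 2, rich in Piwil1, held 20.2 ± 3.54% of members in smoking libraries and 30.5 ± 8.42% in control libraries (exact p = 0.2).

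No gene passed the test between smoking and control members. UMIs were summed over the members of each library, and edgeR's quasi-likelihood test called 0 of 10424 genes at an adjusted p under 0.05 (0% of genes tested), with a lowest adjusted p of 0.996. At an unadjusted p under 0.05 there were 361 genes, 3.46% of those tested. DESeq2 was given 20095 genes, without edgeR's filter on low counts, and called 0, with 212 at an unadjusted p under 0.05. With the filter, limma-voom called 0. The edgeR count depended on the filter. Without it, on 20095 genes, the same edgeR test called 89 genes, 67 higher and 22 lower in smoking libraries. Of these, 76 had also been tested with the filter. Among those 89 genes, 48 had groups that did not overlap. With the filter but without smoking library 3, 3 genes were called, Rpl39, 1700064H15Rik and Mrs2. The median log2 fold over all genes tested was -0.01. In 9.26% of genes all smoking libraries lay on 1 side of all control libraries.

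The genes with the smallest p-values are given as values, all with an adjusted p of 0.996 in edgeR's test. Sfi1, which encodes a centrosomal protein (chr11:3131850-3193463, minus strand, GRCm38), had 38.7, 41.3 and 38.2 CPM in smoking libraries 1 to 3, against 55.5, 62.0 and 63.1 CPM in control libraries 1 to 3. The log2 fold was -0.61 (SE 0.11, unadjusted p = 0.000329), and the groups did not overlap. Lbr, the lamin B receptor of the inner nuclear membrane (chr1:181815335-181843046, minus strand), had 31.4, 30.7 and 31.7 CPM in smoking libraries and 51.3, 50.1 and 43.1 CPM in control libraries, a log2 fold of -0.62 (SE 0.13). Malat1, an abundant nuclear noncoding RNA (chr19:5795690-5802672, minus strand), had 451, 438 and 427 CPM in smoking libraries and 621, 498 and 591 CPM in control libraries, a log2 fold of -0.38 (SE 0.08). In these 3 genes the smoking libraries lay close together, below every control library. Gm13307, Rbbp4, Canx, 2410141K09Rik and Fmn1 were also lower in all smoking libraries, with log2 folds from -1.01 to -0.37. Rbbp4 encodes a histone-binding chaperone and Canx the endoplasmic reticulum chaperone calnexin.

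On the higher side, 4932702P03Rik, an antisense gene on chromosome 13, had 123, 115 and 98.1 CPM in smoking libraries and 59.4, 76.3 and 76.5 CPM in control libraries, a log2 fold of 0.66 (SE 0.12, unadjusted p = 0.000353). Smad1, a signal transducer of BMP receptors (chr8:79338395-79399518, minus strand), had 56.6, 54.5 and 51.8 CPM in smoking libraries against 36.1, 39.7 and 32.3 CPM in control libraries, a log2 fold of 0.60 (SE 0.13). Npm1, the nucleolar histone chaperone nucleophosmin (chr11:33152287-33163206, minus strand), had 741, 628 and 635 CPM in smoking libraries and 541, 529 and 543 CPM in control libraries, a log2 fold of 0.31 (SE 0.08). All smoking values of these 3 genes were above all control values. Rpl29, Ssr2, Gmnn and Lxn had the same pattern, with log2 folds from 0.29 to 0.94. Gmnn encodes the replication licensing inhibitor geminin and Ssr2 a subunit of the translocon-associated complex. Several of these 15 genes also had unequal levels in the clusters: Lbr was at 83.7 CPM in cluster 1 and 6.97 CPM in cluster 5, Sfi1 at 102 and 4.18 CPM, and Smad1 at 11.1 and 80.1 CPM. With the clusters weighted alike in each library, edgeR called 0 genes and the log2 folds were 0.43 for 4932702P03Rik, -0.40 for Sfi1, -0.42 for Lbr, 0.45 for Smad1 and -0.84 for Gm13307.

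**Figure D4:**
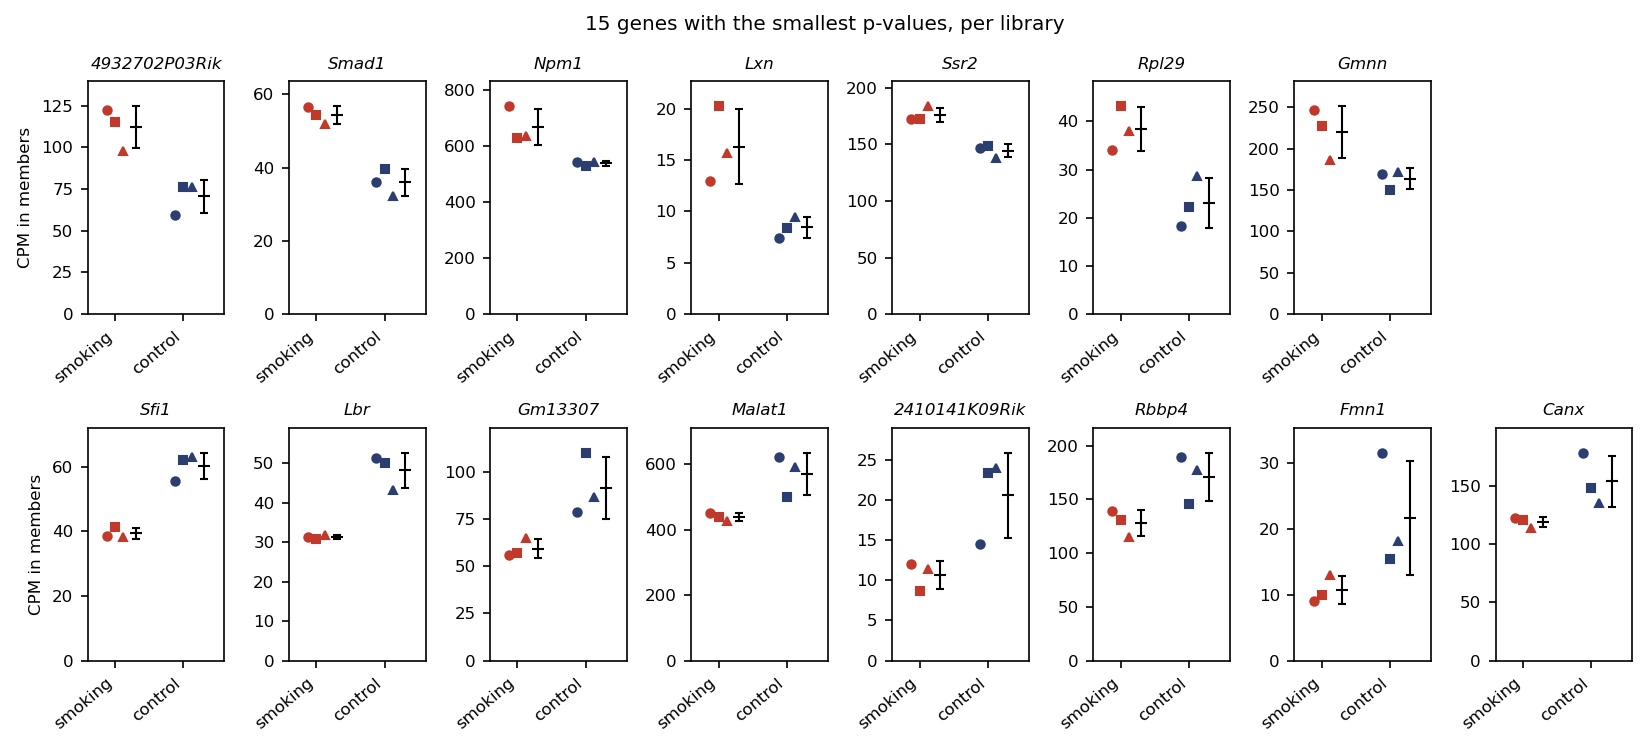
CPM in the members for the 15 genes named from the smallest p-values, 7 on the higher side (top) and 8 on the lower side (bottom), with smoking libraries in red left of control libraries in blue and black bars for mean ± SD (n = 3). Points of the groups do not overlap in any panel, and the edgeR adjusted p of every gene was 0.996. The genes were chosen from these same values, and groups did not overlap in 9.26% of all genes tested.

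The genes of the rule are given by level only. Piwil1 had 832, 727 and 633 CPM in smoking libraries and 779, 781 and 772 CPM in control libraries, and Aurka 189, 206 and 262 CPM in smoking libraries and 179, 172 and 221 CPM in control libraries. Ccna1 had 66.9, 98.2 and 116 CPM in smoking libraries against 71.5, 80.3 and 103 CPM in control libraries. The groups overlapped for all 15 genes of M, S and P.

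Gene groups were read by counts and medians, beside 48.7% of all tested genes with a positive log2 fold and 0 called. Of 34 groups, 3 had smoking and control libraries apart in their share of member UMIs, each with an exact permutation p of 0.1 and an adjusted p of 0.952. Any full separation of 3 against 3 libraries gives that p, and 9.26% of single genes tested were also apart. The 3 groups are given as values. The piRNA pathway took 0.391, 0.387 and 0.383% in smoking libraries and 0.415, 0.402 and 0.405% in control libraries. Taken by cluster, the groups were apart in clusters 1 and 3 and overlapped in clusters 2, 4, 5 and 6. The piRNA list includes the rule gene Piwil1, which gave 16732 of the list's 89124 UMIs, so its share is not free of the selection. Of its 18 tested genes, Piwil1 among them, 13 had a negative log2 fold, with a median of -0.05. Tdrd12, a Tudor protein of piRNA biogenesis, was at 125 ± 8.31 CPM in smoking libraries and 151 ± 19.9 CPM in control libraries, and the helicase gene Ddx4 (VASA) at 499 ± 3.56 and 547 ± 26.5 CPM (SD, n = 3 each). Nuclear noncoding RNAs took 0.0621, 0.0598 and 0.0538% in smoking libraries and 0.0843, 0.0657 and 0.0742% in control libraries, of which Malat1 was the main part. Taken by cluster, the groups were apart in these RNAs only in cluster 4. The third, peritubular myoid markers, rested on 50 UMIs in all members, 0.000156 to 0.000170% in smoking libraries and 0.000199 to 0.000389% in control libraries. Its 4 genes, Acta2, Myh11, Tagln and Cnn1, all had UMIs in members. The mt- genes, often read as a sign of RNA quality, took 3.05, 3.26 and 3.03% in smoking libraries and 3.03, 2.75 and 2.59% in control libraries. The part of either in the other groups was not tested.

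Other groups showed directions without a call. Of 75 ribosomal protein genes, 68 had a positive log2 fold, with a median of 0.06. Their share was 7.21 ± 0.495% in smoking libraries and 6.98 ± 0.105% in control libraries (exact permutation p = 0.6). By library it was 7.18, 7.72 and 6.73% in smoking libraries 1 to 3 and 6.92, 6.93 and 7.11% in control libraries 1 to 3. Smoking library 2 was thus the highest and smoking library 3 the lowest of all. Of 21 flagellum genes, 18 had a negative log2 fold, with a median of -0.11. Odf1, an outer dense fibre gene, was at 49.5, 56.7 and 64.1 CPM in smoking libraries and 78.5, 85.3 and 65.9 CPM in control libraries. Fsip2, a fibrous sheath protein gene, was at 248, 220 and 280 CPM in smoking libraries and 352, 306 and 281 CPM in control libraries, so that smoking library 3 and control library 3 were nearly equal. Among heat shock genes, 12 of 18 had a negative fold. Hspa2 was at 1527, 1407 and 1541 CPM in smoking libraries and 1756, 1618 and 1692 CPM in control libraries (log2 fold -0.18, SE 0.06). Hspa5, the endoplasmic reticulum chaperone BiP, was at 394, 451 and 405 CPM in smoking libraries and 351, 345 and 357 CPM in control libraries (log2 fold 0.25, SE 0.07).

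Groups chosen for smoke exposure and for meiosis are given next. Of 17 tested genes of oxidative defence and NRF2, 11 had a positive log2 fold, with a median of 0.04, and their share was 0.441 ± 0.0160% in smoking libraries and 0.430 ± 0.0177% in control libraries. Of 17 genes of the Ah receptor pathway and glutathione transferases, 6 passed the filter on low counts, with a median of 0.06. Cyp1a1, the classic Ah receptor target, had no UMI in any member. Tiparp, another target of that receptor, was at 29.8 ± 3.42 CPM in smoking libraries and 36.5 ± 3.83 CPM in control libraries. Of 14 tested genes of DNA damage and apoptosis, 10 had a negative fold with a median of -0.06. The synaptonemal complex took 0.320 ± 0.0275% in smoking libraries and 0.340 ± 0.0336% in control libraries, and meiotic recombination genes 0.127 ± 0.00378% and 0.127 ± 0.00602% (SD, n = 3 each). Genes of G2/M and meiotic division took 0.296 ± 0.0150% in smoking libraries and 0.291 ± 0.0188% in control libraries (exact p = 0.9). The X-linked share was 0.131 ± 0.0315% in smoking libraries and 0.130 ± 0.0334% in control libraries (exact p = 0.8). A p that misses the threshold does not show that these values are equal.

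**Figure D5:**
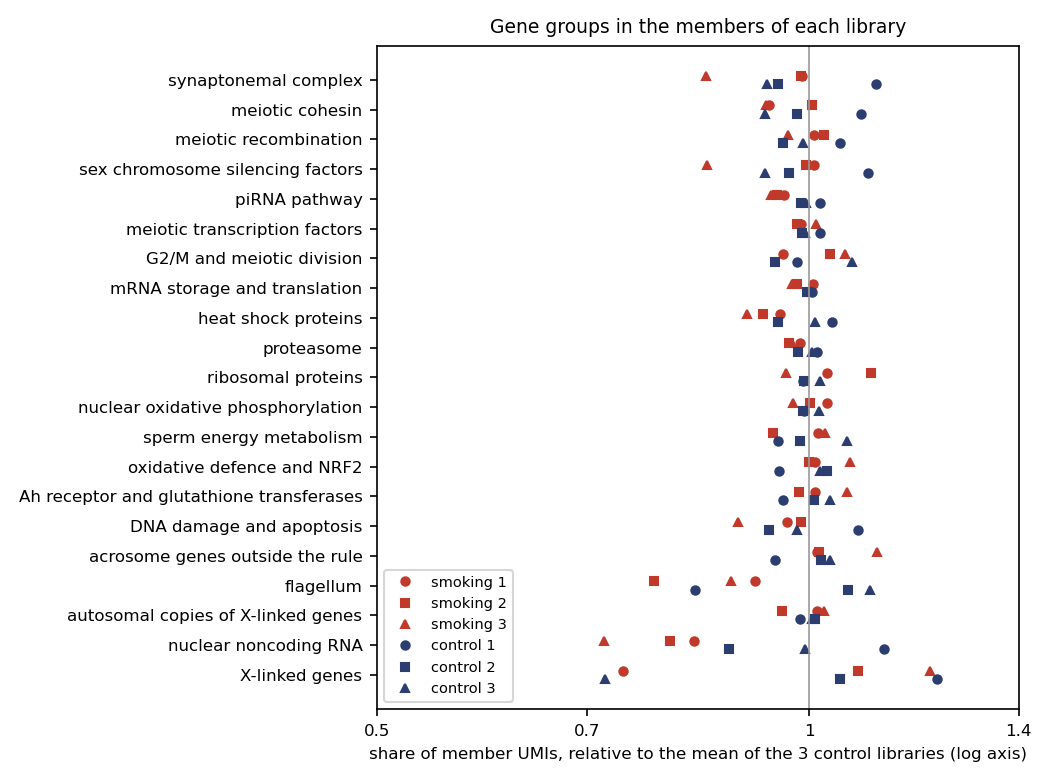
Share of member UMIs from 21 gene groups in each library, divided by the mean of the 3 control libraries (log axis), with smoking libraries in red above control libraries in blue. The smoking points lie left of all control points for the piRNA pathway and for nuclear noncoding RNA, and overlap with control points in the other 19 groups shown. The piRNA list includes the rule gene Piwil1.

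Whether smoking acted differently on members than on their neighbours was tested on within-library differences with limma. Against the round spermatid side, 0 of 9113 genes differed (0% called, 386 at an unadjusted p under 0.05), with a lowest adjusted p of 0.519. The smallest p was that of P4hb, a protein disulfide isomerase gene, with a log2 smoking effect of 0.41 in members and -1.11 in the round spermatid side, where it had 71 UMIs. Against the early meiotic side without the requirement of E above S, 1 of 9344 genes differed (0.0107% called). This was the long noncoding RNA gene Gm45184 (chr7:127434422-127439392, plus strand). It had 14.0, 23.3 and 7.37 CPM in members of smoking libraries and 2.12, 1.98 and 6.31 CPM in those of control libraries, while the early meiotic side had 21, 38.2 and 19.1 CPM in smoking libraries and 46.4, 24.8 and 85.8 CPM in control libraries. The difference of the log2 effects was 2.92 (SE 0.39, limma adjusted p = 0.0195). Its adjusted p was 0.262 without smoking library 1, 0.597 without smoking library 2 and 0.0818 without control library 2, and 0.0110 to 0.0414 without each of the others. With E above S required, 0 of 8238 genes differed (0% called, 285 at an unadjusted p under 0.05), and the adjusted p of Gm45184 was 0.296 with limma and 0.0159 with an edgeR interaction term. It had 235 UMIs in members and was named for passing the threshold, outside the rule on mean level.

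On the round spermatid side itself, edgeR called 3 of 11846 genes between smoking and control libraries. Npm1 and Gm13307 of the 15 genes above were among them. Npm1 had a log2 fold of 0.49 there (edgeR adjusted p = 0.0410) and 0.31 in members. Gm13307 had -0.64 there (edgeR adjusted p = 0.00459) and -0.62 in members. For neither gene did the difference between the cell sets pass the limma test (adjusted p = 0.966 and 0.992). The 15 were chosen by p-values in the same libraries, so these calls are not separate evidence. Lbr had log2 folds of -0.62 in members and 0.31 in the early meiotic side with E above S, a difference of -0.93 with an adjusted p of 0.943.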

How the data were processed

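Single-cell RNA-seq libraries of 3 smoking and 3 control mouse testis samples were analysed. The authors deposited 1 matrix per library, holding unnormalized UMI counts of 30905 genes. Cell Ranger 3.1.0 wrote these matrices per the file headers. CASAVA 1.8, build mm10 and another Cell Ranger version, 7.1.0, stand in the submitters' processing notes. Gene positions are from GENCODE M21. Deposited gene and barcode names were used as given, and 127 genes that share 62 symbols were kept apart by identifier. The sources used here do not state whether counting used strand, so antisense genes are uncertain, as are near-identical copies.

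Members and gene lists were chosen with earlier results of these data known. Leaving X- and Y-linked genes out of the clustering, the order of the clusters and the requirement of E above S on the early meiotic side were chosen after the values were seen. A doublet score compared each barcode with simulated pairs of the same library (50 neighbours, 0.8% per 1000 barcodes), and called barcodes stayed in. Clusters were made by Leiden (leidenalg 0.10.2, resolution 0.5, 15 neighbours, 10 components, 2000 variable genes).

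Counts were summed over members per library and tested in R 4.3.3 with edgeR 4.0.16 (quasi-likelihood, TMM, filterByExpr, Benjamini-Hochberg). DESeq2 1.42.0 and limma 3.58.1 gave alternatives, and limma on log2 CPM differences (prior count 1) tested differences of the smoking effect. Per-library CPM in the smoking comparison are TMM-scaled. Other CPM are not TMM-scaled. Standard errors are the absolute log2 fold over the square root of F. Shares were compared by exact permutation over 20 assignments. Named genes are the 8 smallest p-values each way with a mean of at least 10 CPM, because fewer than 3 passed the threshold (1 of them is not reported here), up to 4 genes per list, the 15 largest folds against neighbours, the leading 8 genes of clusters, and the 5 smallest p-values each way in difference tests. Genes with roles described among clusters or lists beyond these are list members chosen after their values were seen. The edgeR test was checked on simulated counts of 10424 genes, of which 200, all above 20 CPM, were changed 2-fold. It recovered 185 of these and made 14 false calls. The simulated counts were negative binomial, with dispersions that edgeR had estimated. They held no other differences between libraries, so this recovery need not hold for the real libraries or for genes at lower levels. The other tests were not checked in this way. Replicate numbers were given in accession order and pair nothing.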

Additional observations from a re-analysis of the deposited data

Results flagged for a closer look

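The smoking effect on Gm45184 differed between members and the early meiotic side by 2.92 on the log2 scale (limma, adjusted p = 0.0195 over 9344 genes). The log2 fold was 1.96 in members and -1.01 in the early meiotic side, where the groups overlapped. In members all 3 smoking libraries lay above all 3 control libraries, as groups were apart in 9.26% of all genes tested. Smoking library 3 and control library 3 were close, at 7.37 and 6.31 CPM. The limma adjusted p was 0.262 without smoking library 1, 0.597 without smoking library 2, 0.0818 without control library 2 and 0.231 with no filter on low counts. The gene had 235 UMIs in members and 407 in the neighbour. The early meiotic side of that test also held deep cells with spermatid RNA, and with E above S required the difference was 2.75 with a limma adjusted p of 0.296.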

How the results depend on the processing

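The count of genes called between smoking and control libraries was 0 and stayed 0 with DESeq2, limma-voom, DESeq2 size factors, other limits on UMIs, M and P, doublets removed, members thinned to 15000 UMIs, clusters weighted alike and without 1 or both end clusters. It was 89 with edgeR and no filter on low counts, and 0 to 3 when leaving out a library. The 3 calls came without smoking library 3 and were Rpl39, 1700064H15Rik and Mrs2. The percent of genes at an unadjusted p under 0.05 moved more, from 3.46% to 8.50% with clusters weighted alike, 8.61% without cluster 6 and 11.7% without both end clusters. The lowest edgeR adjusted p was 0.242, 0.230 and 0.109 in these 3 settings. That percent was 1.05% with DESeq2, of 20095 genes given to it without the filter, and 2.34 to 8.79% leaving out a library. The calls without a filter had a median of 649 UMIs, and 12 of the 15 named genes were among them. The cause was not tested. All 15 kept their sign in every alternative that gave a value, which was none for 2410141K09Rik with members thinned. The 15 were chosen by their p-values in these same libraries. Neither a kept sign nor a call without the filter is therefore separate evidence. Differences against the round spermatid side numbered 0, and 0 to 10 leaving out a library, with the 10 without control library 3. Against the early meiotic side there was 1, with 0 to 3 leaving out a library, 0 with no filter and 0 with E above S required. The X-linked difference of 0.0016 percentage points was -0.00287 without smoking library 2, -0.0114 without smoking library 3 and -0.0165 without control library 3, a range of -0.0165 to 0.0191 leaving out a library. Gene groups with libraries apart numbered 3, but 6 as a mean over members, 6 with doublets removed and 8 without cluster 6. The share of members among high-UMI barcodes stayed lower in smoking libraries, by -6.66 to -3.87 percentage points leaving out a library. No paired analysis was possible because the labels give no replicate number. The end clusters and E above S were added after seeing the data. With 3 libraries a group, exact tests cannot go below 0.1.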

Other observations

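Some genes differed between single libraries rather than groups. The X-linked spindlin genes Spin2f and Spin2g had 0 UMIs in members of control library 2, which allows up to 3 UMIs of 2011663. Spin2f had 203, 203 and 453 UMIs in smoking libraries 1 to 3 and 197 and 177 UMIs in control libraries 1 and 3. Spin2g had 103, 210 and 374 UMIs in smoking libraries and 60 and 112 UMIs in those controls. These are near-identical family members, and how their reads were divided is uncertain.

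Mrs2, a mitochondrial magnesium channel gene, had 5, 10 and 177 UMIs in members of smoking libraries 1 to 3, against 79, 113 and 265 UMIs in control libraries 1 to 3. Marc2, a mitochondrial amidoxime reductase gene, had 43, 337 and 98 UMIs in smoking libraries and 22, 22 and 35 UMIs in control libraries. The axonemal dynein gene Dnah8 was at 2001, 937 and 914 CPM in smoking libraries and 1107, 2795 and 3410 CPM in control libraries, so that the groups overlapped. Rpl39 had 42, 79 and 12 UMIs in smoking libraries and 4 in each control library, and 54 of the 79 UMIs in smoking library 2 came from the cell with 2.01% X-linked UMIs. These genes were chosen after their values were seen.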
